A study of Mus musculus with 3 samples.

Results

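Hsp90, Hsp60 and 5 partner proteins are described here in macrophages washed from the airspaces of mouse lungs after ozone. The members are 8 genes listed by symbol, out of 33696 genes in the deposited tables, and all 8 were found once each: Hsp90aa1 (ENSMUSG00000021270), Hsp90ab1 (ENSMUSG00000023944), Hspd1 (ENSMUSG00000025980), Hspe1 (ENSMUSG00000073676), Cacybp (ENSMUSG00000014226), Stip1 (ENSMUSG00000024966), Ahsa1 (ENSMUSG00000021037) and Chordc1 (ENSMUSG00000001774). The rule lists them by symbol and uses no expression value, but the members were chosen with earlier results of these data known. Shares of all genes given beside their counts are therefore a description and not a test of the list.

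Hsp90 is a cytosolic dimer that uses ATP to bring kinases, steroid receptors and other client proteins to their final shape, with cochaperones that deliver clients, set the ATPase rate or hold the open or closed form. Hsp90aa1 encodes the isoform known for induction by heat and other protein-damaging stress, and Hsp90ab1 encodes the isoform made at a high level in most resting cells. Hsp60 (Hspd1) is the barrel-shaped chaperonin of the mitochondrial matrix, where newly imported proteins fold, and Hsp10 (Hspe1) is its lid. Several of these genes are textbook targets of heat shock factor Hsf1, which binds repeats of the short unit nGAAn.

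The cells came from bronchoalveolar lavage of wild-type C57BL/6J mice, 12 weeks of age. The left bronchus was tied off and the right lobes were washed, per the labels' protocols. One group breathed filtered air, one 1 ppm ozone and one 1.5 ppm ozone, each for 3 h, and cells were taken 22 to 24 h after the exposure ended. A pool of 3 to 4 mice went into each droplet-based (10x Genomics) library, so each group is 1 library, the mice of a pool cannot be told apart, and a difference between mice and a difference between exposures cannot be told apart either. No gene was altered in any group, and no test between groups can be made. Every interval below is a 95% interval for counting error only, exact Poisson for levels and their ratios and Clopper-Pearson for shares of cells.

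Barcodes with at least 500 unique molecular identifiers (UMIs, 1 per captured transcript), at least 300 genes and at most 10% mitochondrial UMIs were kept, which left 3479 cells from air, 2241 from 1 ppm and 6577 from 1.5 ppm. The mitochondrial limit removed 34.2%, 30.6% and 9.07% of barcodes in that order. Clusters named alveolar-macrophage-like held 3314, 2139 and 5689 cells, with a median of 13877, 16000 and 13067 UMIs per cell and a median mitochondrial share of 4.12%, 3.97% and 2.31%. All 10 alveolar macrophage markers (among them Chil3, Marco and Siglecf) were detected in at least 39.9% of these cells in every library, with a summed level of 14628, 16912 and 11602 UMIs per 1000000 UMIs of those cells (CPM). In these cells neutrophil markers summed to 66.9, 59.5 and 53.2 CPM, T cell markers to 0.54, 0.37 and 1.32 CPM, and monocyte markers to 7.77, 8.53 and 10.8 CPM, most of it Ccr2 at 5.70, 7.23 and 9.13 CPM. The neutrophil marker Csf3r was detected in 30.7%, 26.8% and 17.5% of these cells. Markers of conventional dendritic cells 2 summed to 1299, 1280 and 975 CPM, mostly Sirpa. Those of conventional dendritic cells 1 summed to 472, 505 and 439 CPM, mostly Naaa. Such markers do not separate the classes here. Airway epithelial markers summed to 314, 279 and 353 CPM and the 3 red blood cell markers to 14.8, 0 and 41.1 CPM. Both sums were lowest at 1 ppm and highest at 1.5 ppm, and their part in the results was not tested. Of the airway markers, Epcam was at 56.4, 44.2 and 105.6 CPM and Tubb4b at 86.1, 111 and 134 CPM. Tppp3 was at 138, 95.7 and 82.1 CPM and Scgb1a1 at 33.4, 27.5 and 31.1 CPM, both highest in air. Epcam is also a leading gene of macrophage cluster 4. Kept cells of different libraries shared 1 to 7 barcodes per pair of libraries. The most populous macrophage clusters were 0, 6 and 3 in air, 0, 3 and 6 at 1 ppm and 1, 4 and 7 at 1.5 ppm, so whole-population values compare different mixtures of clusters, and values within clusters are given further on.

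The promoter sequences are shown because Hspe1, Hspd1 and Chordc1 carry the repeat that Hsf1 binds, the first 2 of them in the same DNA. RefSeq's table of gene starts (mouse build GRCm38.p6, while the counts were made on GRCm39) gave 300-base windows, 250 bases before to 50 after the start, for 6 of the 8 genes, all but Hsp90aa1 and Hsp90ab1. Hspe1 and Hspd1 lie head to head on chromosome 1, and the Hspe1 window overlaps the second of the Hspd1 windows by 285 bases (chr1:55087898-55088182). The stretch of Hspe1 shown is chr1:55088029-55088106, plus strand, bases -119 to -42 from the start. That of Chordc1 is chr9:18292233-18292291, plus strand, bases -34 to 24. Capitals mark overlapping matches to GAANNTTC or TTCNNGAA, which are 2 neighbouring heat shock units, searched on both strands.
Hspe1: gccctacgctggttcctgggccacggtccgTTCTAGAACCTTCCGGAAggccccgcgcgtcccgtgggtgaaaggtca
Hspd1: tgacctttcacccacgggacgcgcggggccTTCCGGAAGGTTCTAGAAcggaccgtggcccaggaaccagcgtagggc
Chordc1: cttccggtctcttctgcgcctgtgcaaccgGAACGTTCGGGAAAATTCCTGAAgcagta
The Hspd1 line is the same DNA read on the minus strand, bases -174 to -97 from that start, so both chaperonin genes share 1 run of heat shock units. Hspe1 had 3 such matches and Chordc1 had 5, of which 4 are in the stretch shown. The first of the Hspd1 windows had 0. Either form was present in 15.1% of all 32851 promoter windows, and runs of 3 units (GAANNTTC followed by NNGAA, or TTCNNGAA followed by NNTTC) in 0.603%, among them Hspe1, Hspd1 and Chordc1.

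The Stip1 window held neither form but had 4 copies of CCAAT, in capitals below, over chr19:7040074-7040274 on the minus strand.
Stip1: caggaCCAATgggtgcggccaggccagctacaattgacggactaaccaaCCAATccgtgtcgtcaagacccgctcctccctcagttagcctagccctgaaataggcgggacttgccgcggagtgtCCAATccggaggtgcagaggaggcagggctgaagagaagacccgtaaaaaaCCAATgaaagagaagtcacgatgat
At least 1 CCAAT on either strand was found in 37.4% of windows and 4 or more in 1.06%. The Cacybp and Ahsa1 windows held neither motif. A match describes letters in a window and is not evidence of binding.

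The 2 cytosolic Hsp90 genes had their highest levels at 1.5 ppm and their lowest at 1 ppm. Hsp90aa1, the stress-inducible isoform, was at 253 CPM (interval 249 to 258) in air, 196 (191 to 200) at 1 ppm and 496 (492 to 501) at 1.5 ppm. Hsp90ab1, the constitutive isoform, was at 1166 CPM (1157 to 1176), 937 (927 to 947) and 1777 (1768 to 1785). For both genes the order was 1 ppm, air, 1.5 ppm, and no intervals overlapped.

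The mitochondrial chaperonin pair was also highest at 1.5 ppm. Hspd1, the barrel, was at 148 CPM (145 to 152) in air, 148 (145 to 152) at 1 ppm and 256 (253 to 259) at 1.5 ppm. Hspe1, the lid, was at 177 CPM (173 to 181), 194 (190 to 199) and 320 (317 to 324). The air and 1 ppm levels of Hspd1 could not be separated by counting error, whereas those of Hspe1 could.

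Among the partner proteins, Cacybp, a CS-domain protein known for binding calcyclin and the ubiquitin ligase Siah1, was at 99.4 CPM (96.6 to 102) in air, 104 (101 to 107) at 1 ppm and 221 (218 to 224) at 1.5 ppm. Ahsa1 (Aha1), which speeds up the Hsp90 ATPase, was at 39.7 CPM (38.0 to 41.5), 42.2 (40.1 to 44.3) and 79.7 (77.8 to 81.5). For these 2 genes the air and 1 ppm intervals overlapped and the 1.5 ppm level stood apart. Stip1 (Hop), the adaptor that joins Hsp70 to Hsp90, was at 62.0 CPM (59.8 to 64.2), 56.3 (53.9 to 58.7) and 91.1 (89.1 to 93.1). Chordc1 (morgana), a CHORD-domain protein that binds Hsp90, was at 65.5 CPM (63.3 to 67.8), 53.7 (51.4 to 56.1) and 90.2 (88.2 to 92.1). Both had the order 1 ppm, air, 1.5 ppm with no overlap of intervals. Levels of different genes are not ranked against each other here, since a 3′ UMI count depends on each gene's own transcript end.

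At 1.5 ppm against air, all 8 genes were higher, 6 of them by at least 1.5-fold, where 7.84% of the 4160 genes compared were higher by that much and 3.53% lower. The ratio was 2.22 (2.15 to 2.29) for Cacybp, 2.01 (1.91 to 2.11) for Ahsa1, 1.96 (1.92 to 2.00) for Hsp90aa1, 1.81 (1.77 to 1.85) for Hspe1, 1.72 (1.68 to 1.77) for Hspd1 and 1.52 (1.51 to 1.54) for Hsp90ab1. The other two stayed under the limit, Stip1 at 1.47 (1.41 to 1.53) and Chordc1 at 1.38 (1.32 to 1.43). With a limit of 2-fold the count was 2 of 8, Cacybp and Ahsa1, where 1.44% of genes were that much higher. Over all macrophages, the gene that sets the ATPase rate and the stress-inducible isoform thus lay near 2-fold, while the Hsp70 adaptor lay near 1.5-fold. For Hsp90aa1 the ratio was lower in non-cycling cells alone, as given below. The share of cycling cells, which had more Hsp90aa1, differed between the libraries, and its part in the Hsp90aa1 ratio was not tested. The median log2 ratio of the 8 was 0.82, beside -0.12 over all genes compared. Together they made up 0.201% of macrophage UMIs in air, 0.173% at 1 ppm and 0.333% at 1.5 ppm. The Hsp90ab1 ratio is near the limit and Hsp90ab1 fell short of it under some settings given in the closing section.

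At 1 ppm against air, none of the 8 reached 1.5-fold in either direction, where 0.372% of 4027 genes were higher and 0.795% lower by that much. Hsp90aa1 had a ratio of 0.774 (0.752 to 0.797) and Hsp90ab1 one of 0.803 (0.793 to 0.814), so both isoforms were below air by more than counting error. Chordc1 was at 0.819 (0.775 to 0.866) and Stip1 at 0.907 (0.858 to 0.959), also below. Hspe1 was at 1.10 (1.06 to 1.13), above air. Hspd1, at 1.00 (0.965 to 1.04), had an interval on both sides of 1, and its direction changed with the scaling used. Cacybp was at 1.04 (1.00 to 1.09) and Ahsa1 at 1.06 (0.994 to 1.14), the latter under the 50 CPM that a gene had to reach in 1 of the libraries to be counted. The median log2 ratio of the 8 was -0.07, beside -0.08 over all genes.

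Between the doses, 1.5 ppm against 1 ppm, all 8 genes were higher by at least 1.5-fold, where 4.58% of 4058 genes were and 1.38% were that much lower. With a limit of 2-fold 2 were, Hsp90aa1 and Cacybp, where 1.31% of genes were. Hsp90aa1 had the highest ratio, 2.53 (2.47 to 2.60), and Stip1 the lowest, 1.62 (1.54 to 1.70). Cacybp was at 2.13 (2.06 to 2.20), Hsp90ab1 at 1.90 (1.87 to 1.92) and Hspe1 at 1.65 (1.61 to 1.69). The comparisons against air share the air library and those with 1.5 ppm share that library, so these sets of ratios are not independent of one another. Immediate early genes, whose RNA moves with handling of cells, summed to 1308, 1149 and 1247 CPM in air, 1 ppm and 1.5 ppm, and their part in the results was not tested.

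Cycling macrophages were set apart because their share differed between the libraries. A cell was called cycling when it held at least 3 UMIs of 24 G2 and M phase genes after every cell was thinned at random to 5000 UMIs. This left 3259, 2103 and 5361 macrophages, of which 10.5% (9.49 to 11.6), 9.13% (7.93 to 10.4) and 24.2% (23.0 to 25.3) were cycling, and 30.7%, 31.5% and 41.5% without thinning. The class is a range along a count, not a cell type: 322, 168 and 489 cells had exactly 2 such UMIs and 90, 42 and 205 had exactly 3. Cycling cells held a median of 64, 66 and 48 alveolar marker UMIs per 5000, against 74, 86 and 59 in non-cycling cells, and the median for neutrophil markers was 0 in both classes.

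In non-cycling macrophages all 8 genes were higher at 1.5 ppm against air. Of these, 6 reached 1.5-fold, where 6.24% of 4085 genes did and 2.62% were lower by that much. Hsp90aa1 was at 230, 168 and 402 CPM in air, 1 ppm and 1.5 ppm, a ratio of 1.75 (1.71 to 1.79) at 1.5 ppm. That was below its ratio in all macrophages, a set that includes these cells, so the intervals of the 2 ratios are not independent. Cacybp was at 101, 103 and 226 CPM, a ratio of 2.24 (2.16 to 2.32), and Ahsa1 at 37.7, 41.3 and 75.9 CPM, a ratio of 2.01 (1.90 to 2.13). The ratios of Cacybp and Ahsa1 were close to those in all macrophages. At 1 ppm against air Hsp90aa1 was at 0.733 (0.709 to 0.757) in these cells, and none of the 8 reached the limit, where 0.375% of genes were higher and 0.776% lower by 1.5-fold. At 1.5 ppm against 1 ppm all 8 did, from 1.59 (1.51 to 1.68) for Stip1 to 2.39 (2.32 to 2.46) for Hsp90aa1, where 3.01% of genes were higher and 1.23% lower. These cells hold fewer than 3 G2 and M phase UMIs, so the higher level of the 8 genes at 1.5 ppm was present outside the cycling class. In cells with no UMI of any G2, M or S phase gene (458 in air and 547 at 1.5 ppm) the ratios were 1.83 for Hsp90aa1, 1.55 for Hsp90ab1, 1.80 for Hspe1 and 2.34 for Cacybp.

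In cycling macrophages, 7 of the 8 genes reached 1.5-fold at 1.5 ppm against air, where 5.35% of 4371 genes did and 4.05% were lower by that much. Hspe1 was at 167, 219 and 335 CPM, a ratio of 2.01 (1.89 to 2.14), and Cacybp at 91.7, 111 and 215 CPM, a ratio of 2.35 (2.16 to 2.55). Chordc1 was at 52.5, 42.8 and 89.3 CPM, a ratio of 1.70 (1.52 to 1.90) beside 1.34 (1.28 to 1.40) in non-cycling cells. Stip1 was the member below the limit, at 1.32 (1.20 to 1.45). When cycling cells were called from S phase and G2 and M phase genes together, Chordc1 and Hsp90ab1 also missed it, with log2 ratios of 0.50 and 0.58, and without thinning Chordc1 did, at 0.55. The log2 ratio of Hsp90aa1 in cycling cells at 1.5 ppm against air ran from 0.65 to 0.96 under the alternative settings. Whether a ratio differs between the classes cannot be tested with 1 library per group. At 1 ppm against air, cycling cells had Hspe1 at 1.31 (1.21 to 1.43) and Hsp90aa1 at 0.954 (0.900 to 1.01), where 1.13% of genes were higher and 2.07% lower by 1.5-fold and none of the 8 was either. At 1.5 ppm against 1 ppm 7 were higher by 1.5-fold, all but Stip1 at 1.34 (1.20 to 1.49), where 1.6% of genes were higher and 1.64% lower, and Chordc1 had the highest ratio, 2.09 (1.81 to 2.41).

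Within each library, Hsp90aa1 was the only member at least 1.5-fold higher in cycling than in non-cycling cells in all 3 libraries, where 8.35% of 3954 genes were, and 11%, 10.9% and 8.72% in air, 1 ppm and 1.5 ppm taken singly. A count of 1 of 8 is close to the share of all genes, so it sets the members apart little. Cycling cells were also deeper. Their median was 18336, 24390.5 and 20896 UMIs in air, 1 ppm and 1.5 ppm, against 13647, 15779 and 12341 in non-cycling cells. The part of depth was not tested. The Hsp90aa1 ratio was 1.74 (1.66 to 1.81) in air, 2.26 (2.15 to 2.38) at 1 ppm and 1.70 (1.67 to 1.73) at 1.5 ppm. Hsp90ab1, its constitutive partner isoform, was at 0.920 (0.898 to 0.942), 1.05 (1.02 to 1.09) and 0.955 (0.945 to 0.965). Stip1 was at 1.34, 1.48 and 1.24, above 1 in each library. Chordc1 was at 0.777, 0.773 and 0.986, with an interval below 1 in air and at 1 ppm. Hspd1 lay between 1.11 and 1.24, and Ahsa1 between 1.16 and 1.38. When cells were called cycling without thinning, the Hsp90aa1 ratio was 1.33, 1.51 and 1.50, and no member reached the limit in every library.

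Hsp90aa1 was followed over steps of the mitotic count. Over cells with 0, 1 to 2, 3 to 5, 6 to 11 and 12 or more G2 and M phase UMIs, it was at 231, 229, 324, 335 and 462 CPM in air and at 397, 409, 529, 595 and 752 CPM at 1.5 ppm. At 1 ppm the values were 166, 173, 295, 271 and 443 CPM. The level was highest in the top step in every library, and the intervals of the 2 lowest steps overlapped. Hsp90ab1 at 1.5 ppm went from 1811 CPM at the lowest step to 1654 CPM at the highest, and in air from 1171 to 946 CPM. Among cells below 3 G2 and M phase UMIs, Hsp90aa1 also differed by S phase UMIs, with 194, 215, 280 and 310 CPM in air at 0, 1 to 2, 3 to 5 and 6 or more, and 352, 382, 432 and 531 CPM at 1.5 ppm. Hsp90aa1 was also higher in deeper cells, from 181 CPM in air macrophages of 5000 to 8000 UMIs to 384 CPM in those above 30000, so the part of depth in these steps was not tested.

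**Figure D1:**
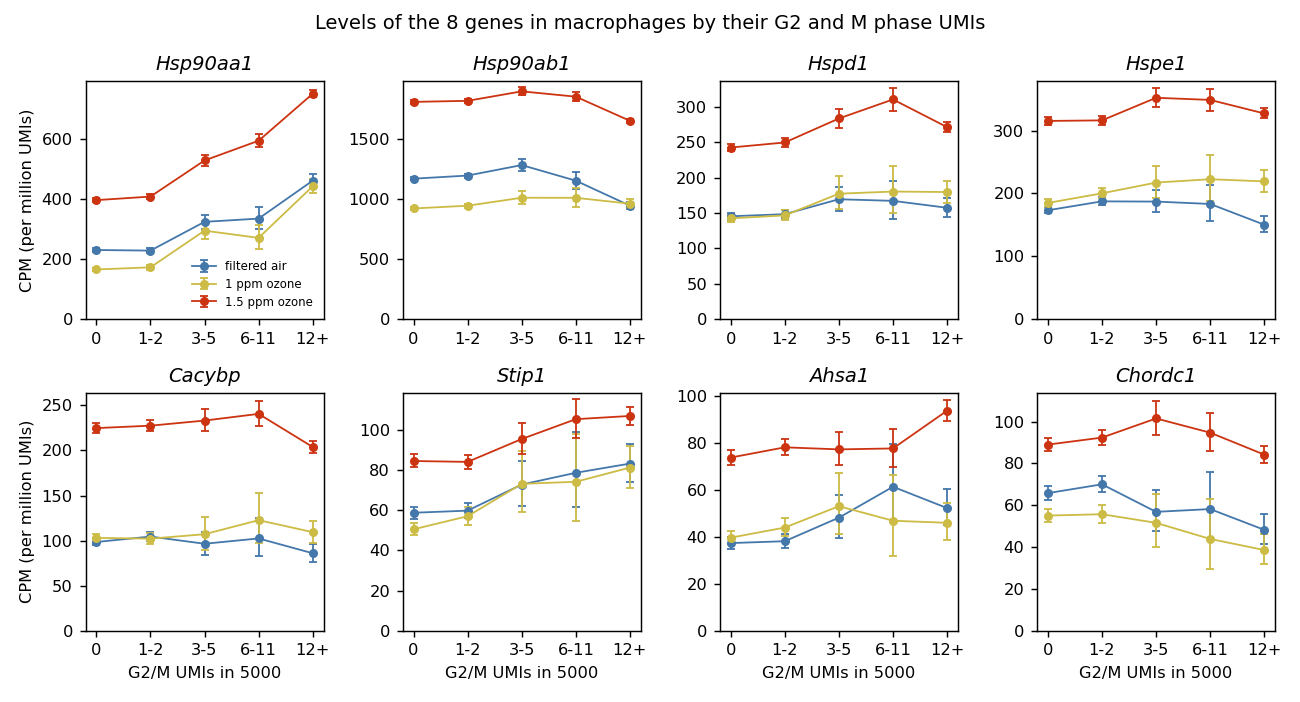
Hsp90aa1 and Hsp90ab1 levels in CPM by the number of G2 and M phase UMIs per cell after thinning to 5000 UMIs, 1 line per library, with 95% Poisson intervals. Hsp90aa1 is highest at 12 or more UMIs in every library (462, 443 and 752 CPM in air, 1 ppm and 1.5 ppm), and Hsp90ab1 in air and at 1.5 ppm is lowest there.

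The share of Hsp90 UMIs that came from Hsp90aa1 summarised this difference between the isoforms. In macrophages it was 17.8% (17.6 to 18.1) in air, 17.3% (16.9 to 17.7) at 1 ppm and 21.8% (21.7 to 22.0) at 1.5 ppm. In cluster 0, led by Dnah11, Rbfox1 and Lepr, it was 14.5%, 14.3% and 16.98%. In cluster 7, led by histone genes and Pclaf, with Rrm2 and Top2a, it was 34.1%, 32.2% and 30.6%, and in cluster 10, led by the mitotic genes Ube2c, Cenpf and Cdc20, 23.8%, 23.7% and 26.5%. The share in the S phase cluster 5 (Ung, Mcm2, Mcm6) was 19.4%, 18.7% and 21.8%. In every library, cluster 7 thus had a higher share than clusters 0, 5 and 10. It was not the highest macrophage cluster at 1.5 ppm, where cluster 17, of high mitochondrial share, had 42.2% (37.7 to 46.8; 63 cells). Cluster 17 held only 17 cells in air and 4 at 1 ppm.

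Cell classes other than macrophages were few, and only the 1.5 ppm library held enough of most of them. There, the Hsp90aa1 share was 17.1% in C1q-expressing macrophage-like cells (63 cells), 21.1% in T cell-like cells (67 cells) and 21.4% in migratory dendritic cell-like cells (42 cells). The neutrophil-like class had 63.4% (61.2 to 65.5; 325 cells), with Hsp90aa1 at 1440 CPM and Hsp90ab1 at 832 CPM. Of its 1261 Hsp90aa1 UMIs, 1038 were from cluster 11. The 2 neutrophil-like clusters differed from each other: cluster 11, led by Ccl4, Ccl3 and Thbs1, had 79.1% (76.8 to 81.3), and cluster 14, led by S100a9, S100a8 and Il1r2, had 32.9% (29.4 to 36.6). In cluster 11 the UMIs were unevenly spread, since the top 23 of 234 cells held 66.6% of its Hsp90aa1 UMIs and 1 cell held 94, at a median of 2031 UMIs per cell. The single cell of that cluster at 1 ppm held 119 Hsp90aa1 UMIs and none of Hsp90ab1. Both values rest on few cells of low depth. The name of cluster 11 is uncertain, since it rests on 3 of 7 neutrophil markers (S100a8, S100a9 and Csf3r).

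The 1.5 ppm and air libraries were also compared cluster by cluster, in the 10 of 12 macrophage clusters with at least 50 cells in both. Cluster 4, with 1086 cells at 1.5 ppm and 35 in air, and cluster 17 were left out. Of the 80 gene-by-cluster ratios, 78 were above 1, 55 were at least 1.5, and 77 had an interval above 1. Over all genes compared and the same clusters, 44.3% of ratios were above 1 and 6.08% at least 1.5. Cells of 1 cluster still differed between the libraries, as in cluster 0, where the median mitochondrial share was 3.83% in air and 2.28% at 1.5 ppm. Cacybp ranged from 1.57 to 2.69 over these clusters, Hsp90aa1 from 1.39 to 2.16, Ahsa1 from 1.51 to 1.90, Hspe1 from 1.24 to 2.10 and Hsp90ab1 from 1.21 to 2.09. Both exceptions were in cluster 8, led by Gm27008 and Lrrc4, a cluster of high mitochondrial share: Chordc1 had a ratio of 0.841 (0.667 to 1.06) and Stip1 one of 0.997 (0.745 to 1.34). That cluster also had low levels of the 8 genes, with a sum of 669, 671 and 1157 CPM in air, 1 ppm and 1.5 ppm, beside 1830, 1506 and 2554 CPM in cluster 0.

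At 1 ppm against air, 28 of 72 ratios in 9 clusters were above 1, beside 41.5% over all genes, and 1 was at least 1.5 (Stip1 in cluster 8, at 1.68), beside 1.62%. Hsp90aa1 was below 1 in 9 of 9 clusters, between 0.70 and 0.93, and Hsp90ab1 in 8 of 9. The lower level of the Hsp90 isoforms at 1 ppm was thus present within nearly all clusters compared. At 1.5 ppm against 1 ppm, 70 of 72 ratios were above 1 and 57 at least 1.5, beside 51.8% and 3.8% over all genes. The exceptions were again Stip1, at 0.592 (0.432 to 0.819), and Chordc1, at 0.763 (0.573 to 1.02), in cluster 8.

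The difference between 1.5 ppm and air was smaller among cells of high mitochondrial share. In air and at 1.5 ppm, the 8 genes summed to 2110 and 3496 CPM in macrophages with 1.5 to 2.5% mitochondrial UMIs, a ratio of 1.66. It was 2071 and 3283 CPM at 2.5 to 4%, a ratio of 1.59. At 4 to 6% the sums were 2088 and 2409 CPM, a ratio of 1.15, and at 6 to 10% they were 1499 and 1470 CPM, a ratio of 0.98 (0.941 to 1.02). Clusters 8 and 17, both of high mitochondrial share, made up 35.3% of the air cells and 61.8% of the 1.5 ppm cells in the last band. Without these 2 clusters the ratios were 1.66, 1.60, 1.33 and 1.21 (1.16 to 1.27), an exclusion chosen after the bands had been seen. For Hsp90ab1 the ratio in the last band was 0.835 with and 1.07 without them, and for Hsp90aa1 1.31 and 1.53. Across bands of UMIs per cell the ratio of the sum stayed between 1.61 and 1.72.

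Per cell and at equal depth, each of the 8 genes was detected in a larger share of macrophages at 1.5 ppm than in air. After thinning to 5000 UMIs, Hsp90aa1 was detected in 61.1%, 54.4% and 80.8% of macrophages of air, 1 ppm and 1.5 ppm, and without thinning in 86.6%, 85.5% and 91.1%. Cacybp was detected in 37.4%, 37.1% and 61.5% after thinning (69.5%, 74.0% and 83.9% before), and Ahsa1 in 17.1%, 18.0% and 31.3% (41.8%, 48.1% and 61.3% before). Hspd1 was detected in 47.8%, 48.3% and 66.2% after thinning, Hspe1 in 55.3%, 59.4% and 73.7%, Stip1 in 25.7%, 23.9% and 34.4% and Chordc1 in 26.5%, 22.8% and 34.7%. Hsp90ab1 was detected in 96.7%, 96.5% and 98.7%, close to every cell. For Ahsa1, Stip1 and Chordc1, each detected in a minority of thinned cells, a shift of most cells cannot be told apart from a rise in some. These genes are active in all cell types of the lavage, so no class could serve as a background for free RNA.

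The sum of the 8 genes per 5000 UMIs had a median of 9 in air, 8 at 1 ppm and 15 at 1.5 ppm in non-cycling macrophages, and of 9, 9 and 16 in cycling ones. The central range, from the 10th to the 90th percentile of non-cycling cells, was 4 to 15, 4 to 13 and 8 to 24. Of non-cycling air cells, 9.57% (8.52 to 10.7) were above the 1.5 ppm median, and 16.6% (15.4 to 17.7) of 1.5 ppm cells were at or below the air median. The distributions of the sum therefore overlapped but were displaced from each other. Most UMIs of the sum came from Hsp90ab1, so the displacement need not hold for each gene. The median number of the 8 genes detected in a cell was 4, 4 and 5, and all 8 were detected in 5, 2 and 99 cells (0.153%, 0.0951% and 1.85%). Correlations between the genes across cells of a library were weak, with a median r over 28 pairs of 0.055, 0.019 and 0.073, and in counts this sparse they are given only as a description.

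**Figure D2:**
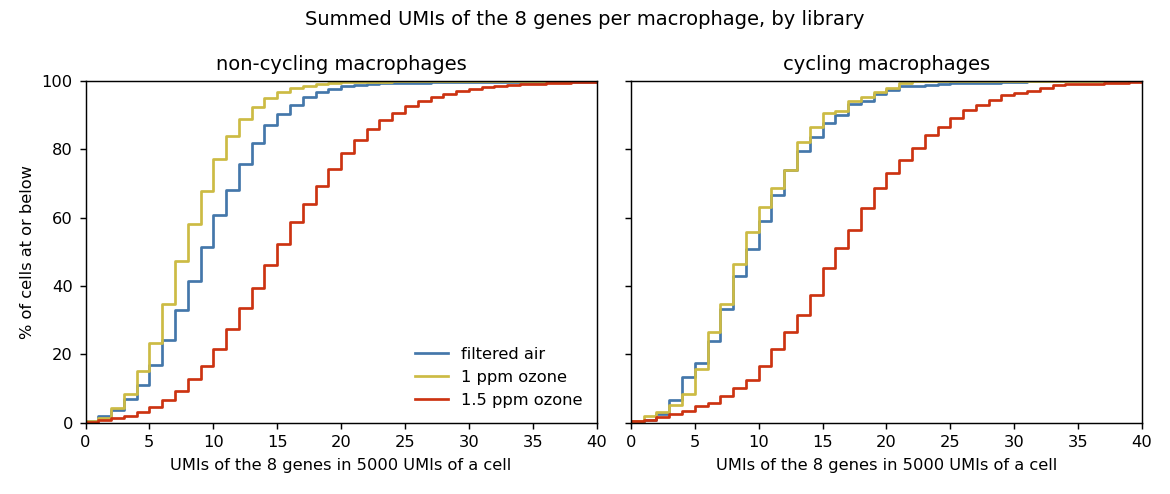
Cumulative share of macrophages by the summed UMIs of the 8 genes per cell after thinning to 5000 UMIs, for non-cycling and cycling cells of each library. The 1.5 ppm curve lies to the right of both others, with a non-cycling median of 15 UMIs against 9 in air and 8 at 1 ppm.

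A small set of air cells had very high Hsp90aa1. The variance of Hsp90aa1 UMIs per cell divided by the mean was 2.36 in air, 1.52 at 1 ppm and 2.42 at 1.5 ppm, and that of Hsp90ab1 was 1.85, 1.46 and 2.09, against 1.00 to 1.25 for the other six. Macrophages with at least 3 UMIs of the inducible Hsp70 genes Hspa1a and Hspa1b after thinning numbered 25 of 3259 (0.767%) in air, 1 of 2103 at 1 ppm and 141 of 5361 (2.63%) at 1.5 ppm. In air those 25 cells had Hsp90aa1 at 1817 CPM and held 5.48% of its UMIs, and Chordc1 at 241 CPM against 62.8 CPM in cells with no such UMI. In the same air cells Ahsa1 was at 55.6 CPM (36.7 to 80.9) against 39.4 CPM. At 1.5 ppm the 141 cells had Hsp90aa1 at 908 CPM and held 5.07% of its UMIs, while cells with no Hspa1a or Hspa1b UMI were at 472 CPM. Cells without such UMIs were at 233 CPM in air, so their 2 libraries were about as far apart as in all macrophages. Of the 10 air cells with most Hsp90aa1 (9 to 46 of 5000 UMIs), 7 were in cluster 12, which is led by Slc7a11, Hmox1, Hspa1a and Hspa1b. In cluster 12, Hsp90aa1 was at 711 CPM for air and 1006 CPM for 1.5 ppm, with a sum over the 8 genes of 3653 and 4818 CPM.

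The genes most like the 8 members were sought over 31 sums of cells, each a macrophage cluster of at least 50 cells in 1 library, among 6758 genes of at least 20 CPM. The points share 3 libraries and their depth, so the correlations describe these points only. They include cluster 8 in every library and cluster 17 at 1.5 ppm, both of high mitochondrial share. Cluster 8 had low levels of the 8 genes, and the part of these points in the correlations was not tested. The highest Pearson r with the mean of the 8 on the log2(CPM + 1) scale was that of Hspa8, the constitutive cytosolic Hsp70, at 0.950. Ptges3, the Hsp90 cochaperone p23, followed at 0.910, and then Cdv3 at 0.900, Tmem167 at 0.896, Gstp1, Psmd12 and Mpc1 at 0.891, Ndufab1 and Tpm3 at 0.888 and Txnl1 at 0.886. After each library's mean was subtracted, 6 of the 10 highest were proteasome subunits, led by Psmd13 at 0.960 and Psmb5 at 0.954, and Hspa8 was at 0.933. For Hsp90aa1 alone the closest were Ptges3 at 0.940, Cisd2 at 0.922, Rheb at 0.913, Dnajb1, an Hsp70 cochaperone, at 0.876 and Txnl1 at 0.868. For Hsp90ab1 alone the closest included Hspe1 at 0.942, Hspd1 at 0.932 and Fam174a and Fam104a at 0.918. Among the members, Hsp90ab1, Hspd1, Hspe1, Cacybp and Ahsa1 had r of 0.89 to 0.94 with each other, and 0.86 to 0.97 after centring. Chordc1 had 0.18 to 0.54 with the other seven, and -0.21 to 0.24 after centring.

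Other chaperone genes at 1.5 ppm against air are given from lists chosen by function. For reading the counts, 37.6% of the 4160 genes compared were above 1 and 7.84% reached 1.5-fold. The lists also count genes under 50 CPM that had at least 100 UMIs over both libraries, which the 4160 leave out. Of 21 further Hsp90 cochaperones 14 were above 1 and 1 reached 1.5-fold, a share no higher than that of all genes: Nudc, from 55.1 to 85.8 CPM (1.56). The compartment-specific Hsp90 paralogs did not reach the limit: Hsp90b1 of the endoplasmic reticulum was at 638 and 836 CPM (1.31), and Trap1 of mitochondria at 26.5 and 25.6 CPM. Of 16 measured genes of the Hsp70 system 12 were above 1 and 3 reached 1.5-fold, namely Dnaja1 (149 to 331 CPM, 2.22), Hsph1 (44.9 to 93.3 CPM, 2.08) and Hspa8 (858 to 1655 CPM, 1.93). At 1 ppm all 16 were below air under total-UMI scaling, where 65.1% of 4027 genes were, and Dnaja2 and Hspa14 were above it under other scalings. The lowest ratio there was that of Hspa1b (40.1 to 23.0 CPM, 0.573), which is under 50 CPM in both libraries and leads cluster 12, a cluster of 90 air and 14 1 ppm cells.

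Against the same shares of all genes, the cytosolic chaperonin CCT had all 8 subunits above 1 and none at 1.5-fold, Cct2 being the highest at 116 and 164.5 CPM (1.42). Of 6 prefoldin subunits, which hand clients to CCT, 5 were above 1 and Pfdn6 reached 1.63. In mitochondria, where Hspd1 and Hspe1 work, 6 of 13 other folding and quality control genes were above 1, Clpx changing side with the scaling. Dnajc19 (56.2 to 101 CPM, 1.80) and Grpel1 (46.2 to 75.4 CPM, 1.63) reached 1.5-fold, and Hspa9, the matrix Hsp70 that passes proteins to Hsp60, was at 153 and 127 CPM (0.83). The 2 heat shock factor genes had levels of 18.6 and 15.3 CPM for Hsf1 and 19.4 and 18.5 CPM for Hsf2, while all 24 G2 and M phase genes were above 1 and 21 reached 1.5-fold.

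Shared transcript ends limit 2 of the genes. In the GENCODE M21 annotation, 36.0% of 90-base windows in the last 500 bases of Hspe1 also occur in AC117239.2, which is not in the tables, and 33.6% of those of Ahsa1 in Gm49207, which had 23, 21 and 31 UMIs in macrophages of air, 1 ppm and 1.5 ppm. The other 6 genes had no shared window.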

How the data were processed

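The authors deposited whole-number UMI counts per gene and barcode. The submitters' processing notes name Cell Ranger 8.0.0 and the build GRCm39 (mm39). The use of intronic reads is not stated there. From these counts, kept cells were scaled to 10000 UMIs, reduced to 30 principal components of 2000 variable genes and clustered (Leiden, resolution 1, leidenalg 0.10.2, igraph 0.11.9). Clusters were named -like from marker lists (at least 3 markers), and 2 stayed unnamed. Doublets were not removed. UMIs were summed over the cells of a library and divided by their total (CPM). Genes were compared if they had at least 50 CPM in 1 library and 100 UMIs over both. With 1 library per group there is no test and no p-value, and a gene counts as higher or lower from 1.5-fold. Ratios have exact conditional Poisson intervals. The ratio code was tested on simulated data. The members, lists and comparisons were chosen with earlier results of these data known, and the exclusions of clusters or cells were chosen after seeing the data. Genes named are the 8 members, the 10 genes most like their mean and the 5 most like each Hsp90 gene, and up to 4 per list by size of ratio; 1 gene the rule names is not reported here. Alternatives were other scalings (TMM and median-of-ratios factors computed on the sums, and leaving out mitochondrial and ribosomal protein genes), cell filters, cell sets, cycling limits and a 2-fold rule. Analyses used scikit-learn 1.9.0, pandas 2.3.3, scipy 1.17.1 and numpy 2.4.6 under Python 3.11.15.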

Additional observations from a re-analysis of the deposited data

Results flagged for a closer look

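The barcodes removed for more than 10% mitochondrial UMIs are outside every comparison above, and the sum of the 8 genes was also higher there at 1.5 ppm. The genes are not given singly. In the highest mitochondrial band of kept macrophages, the sum was higher at 1.5 ppm only without clusters 8 and 17, as given above. In the removed barcodes the summed level was 646 CPM (629 to 663; 1594 barcodes) in air, 576 CPM (554 to 598; 842 barcodes) at 1 ppm and 1020 CPM (967 to 1076; 454 barcodes) at 1.5 ppm. As CPM of UMIs from nuclear genes alone the values were 799, 724 and 1298. All are below the level in kept macrophages of the same library. The removed barcodes were not clustered, so their cell types are not known. They held a median of 4868 UMIs in air, 4789.5 at 1 ppm and 2284.5 at 1.5 ppm.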

How the results depend on the processing

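No paired analysis was possible because each group is 1 pooled library, and for the same reason no replicate could be left out. Under a 2-fold rule the number of the 8 genes past the limit was 2 in each of 4 comparisons: macrophages at 1.5 ppm against air (6 at 1.5-fold) and against 1 ppm (8), non-cycling (6) and cycling (7) macrophages at 1.5 ppm against air. With a cycling limit of 3 UMIs without thinning, 0 genes were higher in cycling cells in every library, against 1 with thinning. Without thinning and on a log CPM scale the median r across cells was 0.131, 0.111 and 0.235, against 0.055, 0.019 and 0.073; the cause was not tested. Under all other alternatives the count at 1.5 ppm against air in all macrophages was 5 to 7, that at 1 ppm was 0 and that between the doses was 8. The log2 ratio of Hsp90ab1 at 1.5 ppm against air ran from 0.55 to 0.65 and that of Stip1 from 0.52 to 0.60, on both sides of the 1.5-fold limit, that of Hsp90aa1 from 0.88 to 1.05, that of Cacybp from 1.04 to 1.19 and that of Chordc1 from 0.42 to 0.50. In cycling cells at 1.5 ppm against air the TMM and median-of-ratios factors each added 0.14 to every log2 ratio. Without thinning the share of macrophages with a UMI was higher at 1.5 ppm than in air for 7 of the 8 genes, against 8 with thinning, Hsp90ab1 being at 98.2% and 97.9%. In cycling cells the count was 5 with the S phase and G2 and M phase lists together and 6 without thinning, and in non-cycling cells it was 5 or 6.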
